A study of Mus musculus with 745 samples.

Results

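The cells described here were brain endothelial cells with counts of Hey1 or Vegfc and no count of 3 genes of larger arteries, and they numbered 78 of 745. They were chosen by their measured values, in CPM, which are counts scaled to a cell's own total. Cells with Vtn, a pericyte gene, at 500 CPM or more were left out (42 cells, 5 of which met the rest of the rule), and 703 cells were kept. A Hey1/Vegfc cell had Hey1 or Vegfc at 20 CPM or more and a count of 0 on each of Bmx, Gkn3 and Cytl1. They were set beside 457 marker-negative cells, which had a count of 0 on all 5 of these genes, and the Bmx/Gkn3 cells (18.6% of kept cells), which had Bmx or Gkn3 at 20 CPM or more. The other 37 kept cells belonged to none of the 3 classes: 30 had Cytl1, or Bmx or Gkn3 below 20 CPM, and 7 had only Hey1 or Vegfc below 20 CPM. Among the Bmx/Gkn3 cells, 86 also had Hey1 or Vegfc at 20 CPM or more, so neither gene is particular to the 78 cells.

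All 745 samples were single primary endothelial cells from the brains of young mice 3 months old. The tissue was dissociated with a commercial kit and cells were sorted by flow cytometry, with a gate not given in the sources used here. No treatment, genotype or other age was compared, and the strain and sex are not given in the labels. Titles divide the cells into 3 sets, Young1, Young2 and AY_Y3, without saying if these stand for animals, pools or plates. Classes were therefore compared over the sums of their counts in each set, with a term that removes shifts shared by a set. The p-values measure only how class differences varied from set to set. That variation includes which cells entered each sum, and it may be technical.

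Blood leaves an artery through arterioles and capillaries and returns through venules, and endothelial cells change their gene expression gradually along that path. Hey1 is a transcription factor induced by Notch signalling, which maintains arterial identity. Vegfc encodes a secreted growth factor that binds the receptor genes' products Flt4 (VEGFR3) and Kdr (VEGFR2). In the brain, capillary endothelium carries most of the nutrient transporters of the blood-brain barrier, such as Slc16a1 (lactate and ketone bodies), Slc7a5 with Slc3a2 (large neutral amino acids) and Mfsd2a (lipids). Bmx, Gkn3 and Cytl1 mark larger arteries.

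The 78 cells were spread over all sets: 27 in Young1, 16 in Young2 and 35 in AY_Y3. As a share of kept cells this was 12.8% (exact 95% binomial interval 8.60 to 18.1) in Young1, 6.56% (3.79 to 10.4) in Young2 and 14.1% (10.03 to 19.1) in AY_Y3. The interval of Young2 overlaps that of Young1, and overlaps that of AY_Y3 only from 10.03 to 10.4%. Overlap of intervals is not a test, and the shares of the sets were not tested against each other. Bmx/Gkn3 cells were distributed otherwise: 20 cells in Young1, 57 in Young2 and 54 in AY_Y3. These intervals cover counting error only.

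Hey1 admitted most of the cells. Of the 78, 57 had Hey1 alone, 13 had Vegfc alone and 8 had both. In Hey1-only cells Hey1 ran from 40.7 to 3430 CPM with a median of 478 CPM, and in Vegfc-only cells Vegfc ran from 26.4 to 2055 CPM with a median of 557 CPM. These values are how the cells were chosen. The threshold fell in a gap: the cells just inside had 26.4, 34.4 and 40.7 CPM for the higher of the 2 genes, and the cells just outside had 4.84, 3.72 and 3.31 CPM. Sets differed in makeup: cells with Vegfc were 5 of 27 in Young1, 7 of 16 in Young2 and 9 of 35 in AY_Y3.

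Whether these cells stand between artery and capillary was read from markers that the rule did not use. A panel of 13 general endothelial genes (Cldn5, Pecam1, Cdh5 and others) summed to 35737 ± 1945 CPM (SD, n = 3 sets) in Hey1/Vegfc cells, against 36111 ± 2334 in marker-negative and 37745 ± 3418 CPM in Bmx/Gkn3 cells, so all 3 classes carried the labelled cell type's markers. Large artery genes outside the rule (Mgp, Fbln2, Fbln5, Eln, Stmn2, Clu and Crip1) summed to 1558, 759 and 864 CPM in the Young1, Young2 and AY_Y3 sums of Hey1/Vegfc cells. Marker-negative cells held 492, 302 and 250.2 CPM of them, and Bmx/Gkn3 cells 3502, 3551 and 5441 CPM. The 3 classes did not overlap on this panel. Without the marker-negative cells that had a venous gene, described further on, the marker-negative sums were 892, 320 and 519 CPM, and the Young1 sum lay above the Young2 and AY_Y3 sums of the Hey1/Vegfc cells.

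Capillary markers put the cells between the same classes from the other side. The 11 capillary genes summed to 14243, 17429 and 17720 CPM in Hey1/Vegfc cells, to 19380 to 20616 CPM in marker-negative cells and to 7856 to 7938 CPM in Bmx/Gkn3 cells. No sums overlapped, but without cells with a venous gene the marker-negative sums were 16500, 18522 and 18687 CPM and overlapped those of the Hey1/Vegfc cells. Venous markers summed to 490, 533 and 1729 CPM in Hey1/Vegfc cells and to 2098, 3012 and 2560 CPM in marker-negative cells. The AY_Y3 cells thus carried more of the venous panel than those of the other sets, and reached the level of the Bmx/Gkn3 cells there (1768 CPM). The 6 arterial capillary markers overlapped between Hey1/Vegfc cells (2790 to 3843 CPM) and both other classes (2554 to 2896 and 3325 to 3847 CPM).

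Cell by cell, the arterial and capillary marker sums were read against the medians of the other classes. The sum of 19 arterial markers outside the rule had a median of 2741 CPM over Hey1/Vegfc cells, 1137 CPM over marker-negative and 7634 CPM over Bmx/Gkn3 cells. The sum of the 11 capillary markers had medians of 17185, 20366 and 5350 CPM. Of the 78 cells, 45 (57.7%) lay above the marker-negative median of the arterial sum and above the Bmx/Gkn3 median of the capillary sum. The same region held 47.05% of marker-negative and 43.5% of Bmx/Gkn3 cells. Its edges are medians of these classes, so about 50% of each lay outside it by construction, and it has no upper edge. These shares therefore cannot decide whether single cells are intermediate. A further 11 Hey1/Vegfc cells (14.1%) were at or beyond the Bmx/Gkn3 medians on both sums, beside 1.09% of marker-negative and 40.5% of Bmx/Gkn3 cells. Another 10 (12.8%) were at or beyond the marker-negative medians, beside 27.4% and 3.05%. In 0 of the 78 cells an arterial sum at or above the Bmx/Gkn3 median met a capillary sum at or above the marker-negative median. This combination was also rare in the other classes, at 0.219% of marker-negative and 0% of Bmx/Gkn3 cells. The label of a transition type was thus read from the class averages only, and the cells are called Hey1/Vegfc cells here.

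**Figure D1:**
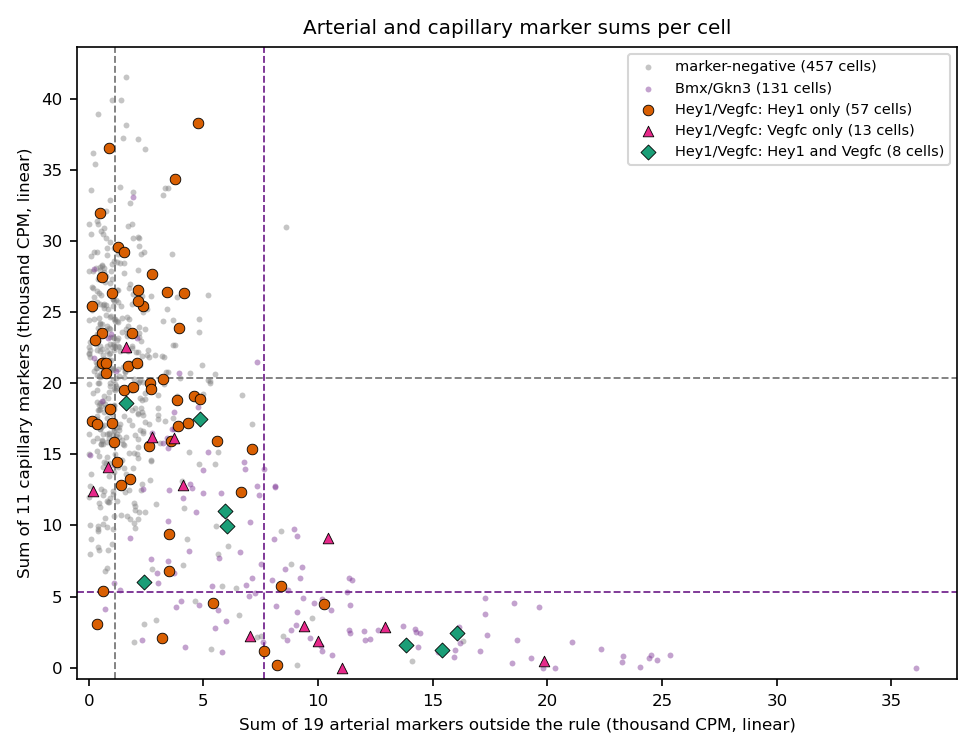
Each point is 1 cell, with the sum of 19 arterial markers outside the rule on the x axis and of 11 capillary markers on the y axis, both on linear axes in CPM divided by 1000. Colours give the class, symbols of the 78 Hey1/Vegfc cells show which gene admitted them, and dashed lines mark the medians of the marker-negative and Bmx/Gkn3 classes. Hey1-only cells lie mostly among the marker-negative cells, and cells with high arterial and low capillary sums are mostly those with Vegfc.

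Several arterial genes were among those that stood higher than in marker-negative cells. Alpl, a tissue-nonspecific alkaline phosphatase of arterial and arteriolar endothelium in brain, measured 834, 683 and 470 CPM in the Hey1/Vegfc sums of Young1, Young2 and AY_Y3. Marker-negative cells had 317, 194.8 and 201.2 CPM of it. No Hey1/Vegfc sum fell within the marker-negative range, and the fitted log2 fold change was 1.57 ± 0.21 (SE). Stmn2, a microtubule regulator used as a large artery marker, measured 205.8, 127.1 and 63.4 CPM against 29.8, 5.03 and 15.1 CPM (log2 fold change 3.20 ± 0.56). Unc5b, a netrin receptor of arterial endothelium, measured 313, 206.1 and 153.003 CPM against 118.5, 51.7 and 29.2 CPM (1.99 ± 0.29). In each of these genes Young1 was the highest Hey1/Vegfc sum and AY_Y3 the lowest, and 58.5% of the Unc5b counts of Young1 came from 1 cell.

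Smaller differences of the same direction stood in genes of higher level. Tm4sf1, a tetraspanin-like membrane protein of endothelium, measured 1642, 1324 and 1387 CPM in Hey1/Vegfc cells and 926, 773 and 919 CPM in marker-negative cells (log2 fold change 0.82 ± 0.13). Slc6a6, the taurine transporter, measured 3915, 3161 and 2951 against 2890, 2295 and 1963 CPM (0.58 ± 0.11). Clu, a secreted chaperone, measured 413, 284 and 365 against 188.3, 84.2 and 99.1 CPM (1.64 ± 0.32). Sox17, a transcription factor of arterial endothelium, measured 659, 479 and 387 against 356, 222.1 and 345 CPM, and Edn1, the vasoconstrictor endothelin, measured 314, 315 and 420 against 261.5, 152.3 and 153.4 CPM. All 3 sums of these 5 genes were above all 3 marker-negative sums.

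No gene passed the test. edgeR's quasi-likelihood test with Benjamini-Hochberg adjustment called 0 of 8841 genes (0%) between Hey1/Vegfc and marker-negative cells, with a smallest adjusted p of 0.441. An unadjusted p under 0.05 was reached by 408 genes. DESeq2 called 366 genes on the same sums, and limma on the log2 of the mean CPM over cells called 0. Counts of genes whose 3 sums lay entirely above or below those of the other class are therefore given as a description. By that rule 346 genes (3.91%) were higher in Hey1/Vegfc cells and 895 (10.1%) were lower, and the median log2 fold change of all genes was −0.15. Hey1/Vegfc sums rested on 16 to 35 cells and the 3 marker-negative sums on 457 cells, and the part of this difference in the lower calls was not tested.

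Of 26 tested arterial genes outside the rule, 10 (38.5%) were higher in all 3 sums and 0 were lower, and their median log2 fold change was 1.04. These were the 8 named above, Fbln2, a matrix fibulin, and Hrct1. In Fbln2, 98.4% of the counts of Young1 came from 1 cell. Mgp, an inhibitor of calcification, stood at 360, 52.9 and 192.2 CPM against 61.6, 18.8 and 6.12 CPM, which overlapped. Fbln5, an elastic fibre protein, stood at 226.5, 0 and 37.4 CPM in Hey1/Vegfc cells and had 2 counts in all marker-negative cells. Its counts came from 5 Hey1/Vegfc cells. Efnb2, an arterial ephrin, overlapped at 147.9, 112.05 and 10.4 CPM against 63.6, 25.2 and 39.6 CPM, as did Sema3g at 119.02, 53.5 and 2.46 CPM against 3.92, 4.59 and 10.2 CPM, Gja4, Nebl, Mecom and Crip1. Gja5 reached at most 0.074 CPM in a Hey1/Vegfc sum and was too low to be tested.

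The arterial difference depended on which cells made up the marker-negative class. That class held 286 cells (62.6%) with a venous gene (Slc38a5, Nr2f2, Vwf or Vcam1) at 20 CPM or more, against 29 (37.2%) of the Hey1/Vegfc cells and 74 (56.5%) of the Bmx/Gkn3 cells, so most cells of that arterial class met the criterion too. With those 286 cells left out, 3 of 27 arterial genes (11.1%) were higher without overlap, beside 3.85% of all genes, and the median log2 fold change was 0.53. Alpl then stood at 576, 483 and 396 CPM in the remaining marker-negative cells and overlapped (log2 fold change 0.44 ± 0.20). Stmn2 (58.1, 12.8 and 42.9 CPM), Tm4sf1 (1227, 916 and 1227 CPM) and Edn1 (287, 118.9 and 217.1 CPM) were the 3 without overlap. Venous genes were by construction reduced in that comparison.

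Venous genes stood lower. Of 12 tested, 8 had all 3 sums below the marker-negative range (beside 10.1% of all genes) and 0 above it, with a median log2 fold change of −3.52. Without venous-gene cells in the marker-negative class this was 1 of 10, with a median of 0.66. Ctsc, a lysosomal protease, measured 0.232, 2.07 and 88.4 CPM against 145.9, 229.7 and 158.4 CPM. Nr2f2, the transcription factor that specifies veins, measured 2.74, 0 and 16.2 CPM against 34.2, 88.03 and 31.5 CPM. For both genes AY_Y3 held the highest Hey1/Vegfc level and the counts lay in few cells, 9 of 78 for Ctsc and 3 of 78 for Nr2f2. Slc38a5, a glutamine transporter that is enriched in venules and also found in capillaries, was lower less deeply at 223.6, 285 and 696 CPM against 789, 971 and 991 CPM (log2 fold change −1.26 ± 0.30), a direction that turned when cells with Slc38a5 were left out of the marker-negative class. Tmsb10, a thymosin, stood at 82.8, 171.9 and 421 against 462, 584 and 492 CPM. Vwf, the clotting carrier, overlapped at 0.464, 26.5 and 231.1 CPM against 200.9, 305 and 270 CPM.

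Most capillary genes overlapped with the marker-negative class. Of 25 tested, 5 were lower (20%, beside 10.1% of all genes) and 1 was higher without overlap, with a median log2 fold change of −0.27. Car4, a carbonic anhydrase on the luminal surface of capillaries, measured 1031, 1273 and 1773 CPM against 2477, 2517 and 2406 CPM (log2 fold change −0.78 ± 0.33). Itm2a measured 7285, 8545 and 8496 CPM against 10478, 11179 and 10815 CPM (−0.33 ± 0.10), and Slc22a8, an organic anion transporter, 476, 791 and 880 against 1148, 1038 and 1398 CPM (−0.67 ± 0.21). Without venous-gene cells in the marker-negative class, 1 of 25 was lower (4%, beside 5.24% of all genes). The log2 fold changes were then −0.46 ± 0.35 for Car4 and −0.39 ± 0.25 for Slc22a8, both with overlap, and −0.16 ± 0.11 for Itm2a, without. The gene with the higher sums was Ivns1abp at 347, 338 and 265 CPM against 155.9, 186.7 and 111.96 CPM. Mfsd2a, Slc16a1, Slc3a2, Slc7a5, Slco1c1, Slco1a4, Abcg2 and Igf1r all overlapped. Their fitted log2 fold changes lay between −0.27 and 0.02.

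**Figure D2:**
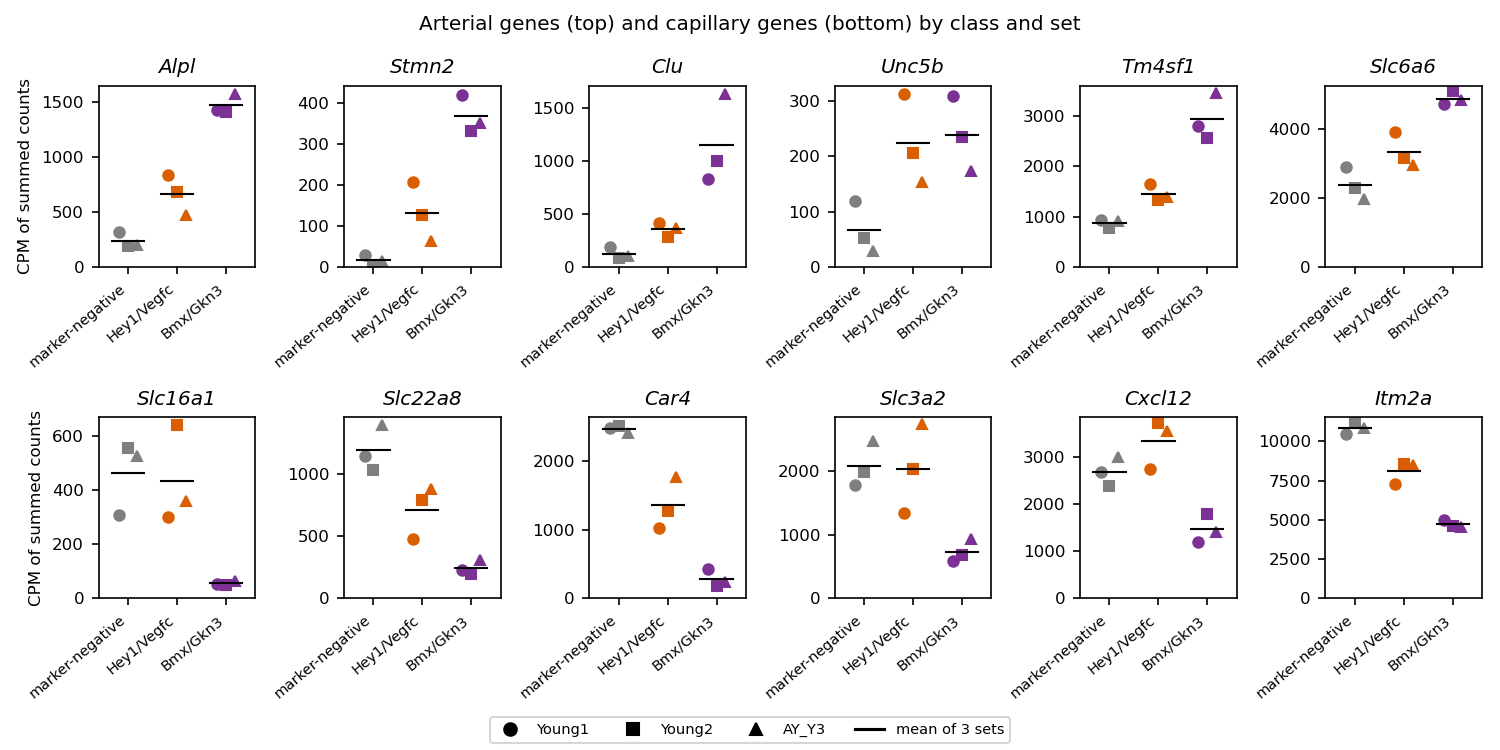
Each panel shows 1 gene in CPM of the summed counts of a class, on a linear axis from 0, with 1 symbol for each set and a black line at the mean of the 3 sets. In the top row the Hey1/Vegfc sums lie above all marker-negative sums, and all but those of Unc5b also lie below all Bmx/Gkn3 sums. In the bottom row the Hey1/Vegfc sums lie above all Bmx/Gkn3 sums.

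Genes of the capillary barrier were among those that stood higher than in Bmx/Gkn3 cells. Slc16a1 measured 300, 638 and 359 CPM in Hey1/Vegfc cells and 53.1, 49.8 and 62.8 CPM in Bmx/Gkn3 cells (log2 fold change 2.93 ± 0.32; edgeR adjusted p 0.0761). In Young1, 92% of the Slc16a1 counts came from 1 cell. Slc3a2, the shared chain of the amino acid exchangers, measured 1345, 2024 and 2730 against 584, 681 and 934 CPM (1.49 ± 0.13; edgeR adjusted p 0.0626). Slc1a1, a glutamate transporter, measured 482, 332 and 385 against 130.5, 49.7 and 55.7 CPM, and Slc38a3, a glutamine transporter, measured 317, 430 and 626 against 65.4, 103.6 and 80.1 CPM. Gatm, the first enzyme of creatine synthesis, measured 836, 1312 and 1054 against 163.4, 226.1 and 363 CPM (log2 fold change 2.18 ± 0.22; edgeR adjusted p 0.0626). Slc1a1, Slc38a3 and Gatm were named after their values were seen.

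The adjusted test called 0 of 8841 genes (0%) here as well, with a smallest adjusted p of 0.0626, although 604 genes had an unadjusted p under 0.05. DESeq2 called 560 genes. Limma on the log2 of the mean CPM over cells called 17, of which 15 were higher. Without overlap, 385 genes (4.35%) were higher and 674 (7.62%) were lower, at a median log2 fold change of −0.09.

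Of the 25 capillary genes, 16 (64%) were higher in all 3 sums and 0 were lower, with a median log2 fold change of 1.40. Itm2a measured 7285, 8545 and 8496 CPM against 5021, 4617 and 4570 CPM. Cxcl12, a chemokine of capillary endothelium, measured 2752, 3717 and 3551 CPM against 1196, 1803 and 1417 CPM (log2 fold change 1.23 ± 0.15). Car4 stood at 1031, 1273 and 1773 against 426, 180.96 and 246.1 CPM (2.34 ± 0.35), and Slc22a8 at 476, 791 and 880 against 226.9, 200.5 and 313 CPM (1.57 ± 0.21). Spock2, Hmcn1, Slc7a5, Slco1a4, Abcg2, Pglyrp1, Igf1r, Ttyh2, Abcg1 and Ivns1abp completed those with Slc16a1 and Slc3a2. Mfsd2a, at 624, 346 and 1069 against 382, 160.5 and 310 CPM, overlapped, as did Tfrc, the transferrin receptor, at 169.5, 50 and 321 against 27.1, 69.7 and 98.2 CPM. Chn2 overlapped too.

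Arterial genes stood lower than in Bmx/Gkn3 cells: 13 of 26 without overlap (50%, beside 7.62% of all genes) and 0 higher, with a median log2 fold change of −0.97. Alpl measured 834, 683 and 470 CPM against 1428, 1413 and 1576 CPM (log2 fold change −1.15 ± 0.21). Tm4sf1 measured 1642, 1324 and 1387 against 2793, 2551 and 3457 CPM (−0.96 ± 0.13; edgeR adjusted p 0.0972). The deepest differences were in genes of large vessels and elastic tissue: Eln, the elastin gene, at 1.39, 4.96 and 10.2 against 83.8, 123.97 and 85.5 CPM, and Mgp at 360, 52.9 and 192.2 against 1302, 1266 and 2240 CPM. Stmn2, Clu, Fbln2, Fhl1, Crip1, Gja4 (a gap junction protein), Jag1, Edn1 and Slc6a6 were the other members without overlap. Unc5b, by contrast, overlapped closely at 313, 206.1 and 153.003 against 310, 234.8 and 173.2 CPM (log2 fold change −0.08 ± 0.28), as did Sox17, Nebl and Mecom.

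**Figure D3:**
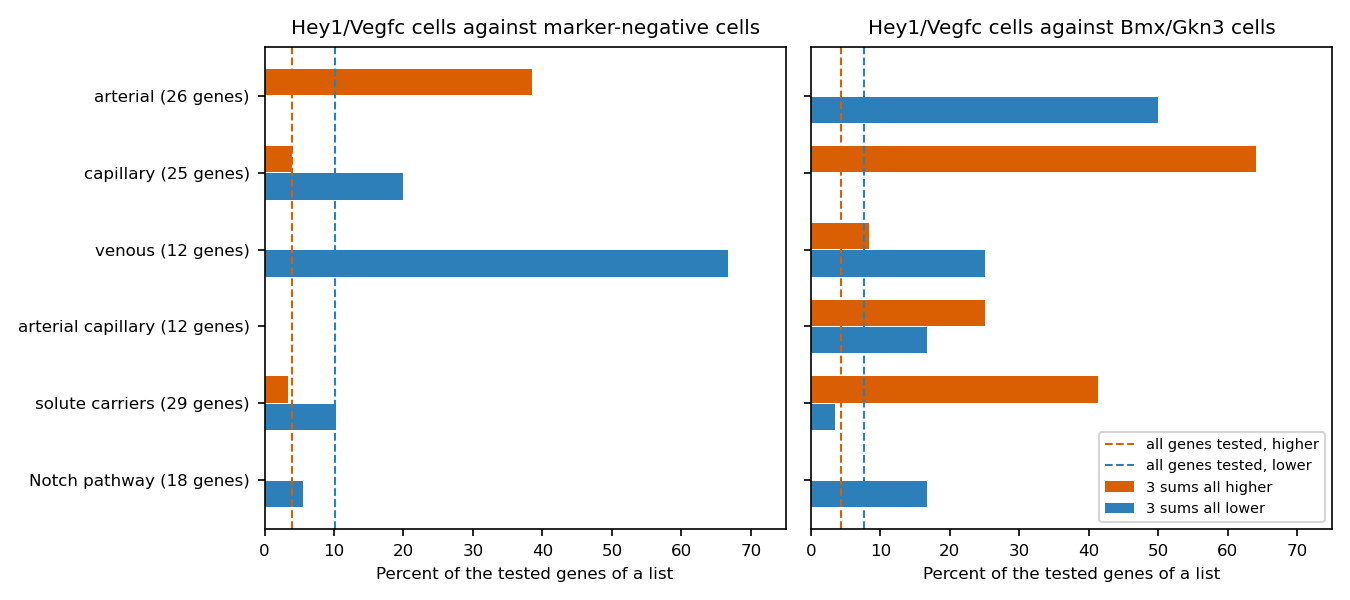
Bars give the percent of the tested genes of each list whose 3 Hey1/Vegfc sums were all higher (orange) or all lower (blue) than the 3 sums of the class compared, with dashed lines for the same share of all 8841 genes tested. Arterial genes stand at 38.5% higher against marker-negative cells and 50% lower against Bmx/Gkn3 cells, and capillary genes at 64% higher against Bmx/Gkn3 cells.

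The order of the class means was also read over all genes of sufficient level. Of 7243 genes at 20 CPM or more in a class, the mean of the Hey1/Vegfc sums was between the other 2 means in 29.2%, above both in 33.1% and below both in 37.7%. These positions take no account of the spread between sets. Genes that do not differ between the classes also fall into them by spread alone. The shares therefore cannot decide whether the cells are intermediate. The contrast with the midpoint of the 2 classes called 0 of 8841 genes (0%) by edgeR, with 485 at an unadjusted p under 0.05, and 442 by DESeq2. Asking that all 3 sums lie outside both classes, at 20 CPM or more, left 1.23% of the 8841 genes above and 2.18% below. Plxna2, a semaphorin receptor, measured 370, 256.3 and 239.6 CPM against 128.5, 132.3 and 103.9 CPM in marker-negative and 202.8, 150.8 and 180.4 CPM in Bmx/Gkn3 cells. Its difference from marker-negative cells was 1.31 ± 0.24 on the log2 scale. Its difference from Bmx/Gkn3 cells, 0.72 ± 0.24, turned negative with thinned cells and with each cell weighted the same. Tgm2, a transglutaminase, was below both at 260.6, 201.9 and 360 CPM against 703, 894 and 902 CPM and 513, 565 and 657 CPM (log2 fold changes −1.54 ± 0.19 and −1.05 ± 0.19). Without venous-gene cells the marker-negative sums of Tgm2 were 355, 364 and 472 CPM and overlapped. Plxna2 and Tgm2 were chosen after their values were seen.

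The arterial capillary genes taken from published brain atlases overlapped with marker-negative cells. Of 12 tested, 0 had sums above or below the marker-negative range, beside 3.91% and 10.1% of all genes. Compared set by set, 5 (Tgfb2, Glul, Slc26a10, Slc9a3r2 and Pdgfd) were higher than the marker-negative sum of the same set in all 3 sets, beside 8.85% of all genes, and 4 had an unadjusted edgeR p under 0.05, as had 408 of all 8841 genes. Tgfb2, a transforming growth factor, measured 132.8, 345 and 254.7 CPM against 120.95, 142.1 and 104.5 CPM in marker-negative and 523, 360 and 447 CPM in Bmx/Gkn3 cells. Glul, glutamine synthetase, measured 1884, 2062 and 1101 against 1140, 876 and 1015 and 2381, 2319 and 2525 CPM. Both were between the classes on average and lower than Bmx/Gkn3 cells in all sums. Without venous-gene cells the marker-negative sums of Glul were 1790, 1157 and 1882 CPM (log2 fold change 0.06 ± 0.28). The AY_Y3 sum of Hey1/Vegfc cells was then below the marker-negative one. Rgcc, a cell cycle regulator, and Ccdc141 ran the other way: Rgcc stood at 376, 368 and 660 CPM against 534, 487 and 577 CPM in marker-negative and 225.8, 89.7 and 168.6 CPM in Bmx/Gkn3 cells. Slc26a10 overlapped with both classes at 369, 177.8 and 118.3 CPM (marker-negative 125.4, 80.9 and 79.2 CPM), and Mlf1 was too low to be tested.

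Hey1 is a Notch target, so the other Notch genes were listed whatever their values. Of 18 tested, 0 were higher and 1 was lower without overlap against marker-negative cells, beside 3.91% and 10.1% of all genes, with a median log2 fold change of 0.10. Notch1 measured 563, 438 and 302 CPM against 300, 302 and 275 CPM in marker-negative and 327, 365 and 468 CPM in Bmx/Gkn3 cells. The sums of Young1 and Young2 lay above the marker-negative range and that of AY_Y3 within it. The ligand gene Jag1 measured 264, 163.7 and 135.4 CPM, between 165.7, 123.99 and 66.95 CPM and 412, 383 and 302 CPM. Dll4, the other main arterial ligand gene, did not separate any class, at 44.01, 136.98 and 144.2 CPM against 132.9, 91.5 and 85.5 and 63.9, 119.6 and 103.5 CPM. Notch4 overlapped at 232.1, 65.9 and 123.5 CPM, Jag2 at 102.5, 174.8 and 186.8 CPM and Hes1, another Notch target, at 53.9, 64.2 and 89.1 CPM. Hey2 and Heyl, relatives of Hey1, had no count in any of the 78 cells. Epas1, a hypoxia-inducible factor, was lower than in Bmx/Gkn3 cells at 1153, 1648 and 1910 against 2178, 2477 and 2144 CPM, and Rfng, a modifier of Notch receptors, was the gene below both classes at 0.232, 0 and 8.23 CPM.

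The receptors that bind the Vegfc product showed no separation from marker-negative cells in the higher direction. Flt4 measured 132.2, 334 and 222.7 CPM against 205.2, 200.4 and 201.7 CPM, with Young1 below and the other sets above. Against Bmx/Gkn3 cells, at 81.2, 132.01 and 161.1 CPM, Flt4 overlapped by 1 value (log2 fold change 0.90 ± 0.33). Kdr measured 253.8, 366 and 382 CPM, below 423, 463 and 447 CPM in marker-negative cells and mostly above 85.6, 274 and 129.5 CPM in Bmx/Gkn3 cells. Flt1, Tek, Tie1 and Nrp1 overlapped with both classes. Over the 10 tested genes of the VEGF and angiopoietin list, 0 were higher and 2 were lower than marker-negative cells, beside 3.91% and 10.1% of all genes, and 0 were without overlap against Bmx/Gkn3 cells. Angpt2 reached 896 CPM in AY_Y3 against 123.1 and 0 CPM in the other sets, and 99.4% of that sum came from 1 cell.

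Many transport genes stood higher than in Bmx/Gkn3 cells. Of 29 tested solute carriers of the barrier, 12 were higher than in Bmx/Gkn3 cells without overlap (41.4%, beside 4.35%) and 1, Slc6a6, was lower. Their median log2 fold change was 0.79. Against marker-negative cells 1 was higher and 3 were lower, beside 3.91% and 10.1% of all genes. The 3 were Slc22a8, Slc38a5 and Slc40a1, the iron exporter, and the median log2 fold change of the list was −0.17. Slc40a1 stood at 92.8, 185.9 and 379 CPM against 456, 657 and 576 CPM. Of 16 tested receptors of receptor-mediated uptake, 4 were higher than in Bmx/Gkn3 cells (Bsg, Igf1r, Slc3a2 and Sort1) and 2 were lower, beside 4.35% and 7.62% of all genes. Igf1r and Slc3a2 are also among the capillary genes counted above. Bsg, the chaperone of lactate transporters, measured 18402, 16585 and 16818 CPM against 12068, 13334 and 12390 CPM.

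Some genes of caveolae, the vesicles of transcytosis, stood lower. Of 14 tested, 5 were lower than in Bmx/Gkn3 cells without overlap (beside 7.62% of all genes), 0 were higher and the median log2 fold change was −0.76. Cav1, the coat protein, measured 624, 395 and 360 CPM against 929, 645 and 818 CPM (log2 fold change −0.77 ± 0.19). Cd9, a tetraspanin, measured 828, 245.3 and 266 against 1071, 916 and 910 CPM, and Ehd4, a membrane-shaping ATPase, 216.9, 35.3 and 163.6 against 429, 237.9 and 532 CPM. Against marker-negative cells 0 were higher and 1 was lower, beside 3.91% and 10.1% of all genes.

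Of 16 vascular tone genes, 3 were higher than in marker-negative cells without overlap (Nos1, Edn1 and Trpv4, beside 3.91% of all genes). Against Bmx/Gkn3 cells 6 were lower, beside 7.62% of all genes, and 1, the phosphodiesterase gene Pde5a, was higher. The median log2 fold changes were 0.42 and −0.32. Nos1, a nitric oxide synthase, measured 65.4, 103.8 and 79.1 CPM against 5.16, 0.916 and 1.76 CPM in marker-negative and 120.5, 241.6 and 148.8 CPM in Bmx/Gkn3 cells (log2 fold change 5.20 ± 0.81 from marker-negative). It was counted in 11 of 78 cells, and in each set 1 cell gave between 60.99% and 77.1% of the counts. Of 29 matrix genes, 6 were higher than in marker-negative cells (beside 3.91% of all genes) and 1 was lower, with a median log2 fold change of 0.13. Timp3, a protease inhibitor, was among the 6 at 1671, 1042 and 1442 CPM against 720, 534 and 670 CPM. Without venous-gene cells the marker-negative sums of Timp3 were 1155, 764 and 1002 CPM and overlapped (log2 fold change 0.51 ± 0.32). Against Bmx/Gkn3 cells 6 matrix genes were lower (beside 7.62%) and 2, Vwa1 and Serpine2, were higher, with a median log2 fold change of 0.14. Col18a1 was one of the 6 at 24.4, 11.9 and 35.9 CPM against 156.9, 133.2 and 141.3 CPM. Of 19 MHC class I presentation genes, 0 were higher and 3 were lower than in Bmx/Gkn3 cells (beside 4.35% and 7.62% of all genes), H2-D1 among them at 3106, 2384 and 2595 against 4086, 3362 and 4609 CPM.

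Markers of other cell types were counted in all 3 classes. The smooth muscle panel of 10 genes summed to 41.8 to 97.3 CPM in Hey1/Vegfc cells, 24.1 to 260.9 in marker-negative and 140 to 1047 CPM in Bmx/Gkn3 cells, and Tagln, Cnn1, Des, Tpm2 and Actg2 were at 0 in Hey1/Vegfc cells. The pericyte panel of 11 genes summed to 231.9 to 519, 381 to 489 and 49.7 to 291 CPM, with Kcnj8, Anpep and Atp13a5 at 0 in Hey1/Vegfc cells. Of 78 cells, 6 had a Vtn count, up to 480 CPM. The 11 astrocyte genes summed to 1369 to 1581, 1177 to 1272 and 1606 to 2625 CPM, so Hey1/Vegfc cells lay above marker-negative cells without overlap. Without venous-gene cells the marker-negative sums were 1486, 1216 and 1436 CPM and overlapped those of the Hey1/Vegfc cells. Apoe at 976, 933 and 906 CPM and Clu, also an arterial gene here, made up most of the panel in Hey1/Vegfc cells. Of the others, Aldoc, Slc1a2, Slc1a3, Gja1 and Aqp4 made 26.6, 336 and 55.3 CPM of that in Hey1/Vegfc cells, and Gfap was at 0. The 9 neuron genes summed to 64.4 to 211.03 CPM in Hey1/Vegfc cells, 12.5 to 48.9 in marker-negative and 333 to 440 CPM in Bmx/Gkn3 cells, and Stmn2, described above, made up most of the Hey1/Vegfc sums. Tubb3, Gad1 and Slc17a7 were at 0 in Hey1/Vegfc cells. The 9 oligodendrocyte genes summed to 99.8 to 383 CPM in Hey1/Vegfc cells, 27.8 to 1853 in marker-negative and 38.6 to 299 CPM in Bmx/Gkn3 cells. The part of astrocyte or mural RNA in a single gene's result was not tested. Such genes reached 200 CPM or more in 10 Hey1/Vegfc, 85 marker-negative and 24 Bmx/Gkn3 cells. With these cells left out, 11 of 26 arterial genes were higher than in marker-negative cells without overlap (beside 3.7% of all genes). Against Bmx/Gkn3 cells, 18 of 25 capillary genes were then higher (beside 4.2% of all genes).

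Over all sets, depth had medians of 577847 counts per cell in Hey1/Vegfc, 594226 in marker-negative and 638930 in Bmx/Gkn3 cells. In Young1 and Young2 the Hey1/Vegfc median lay between those of the other classes. In AY_Y3 it was 335831 counts, below 398177 in marker-negative and 481589 in Bmx/Gkn3 cells. Hey1/Vegfc cells had 84280 to 2176270 counts, and their sums held 21542438, 13520651 and 16280709 counts in Young1, Young2 and AY_Y3. After thinning each cell to 50000 counts, the median number of genes was 1697 in Hey1/Vegfc, 1592 in marker-negative and 1914 in Bmx/Gkn3 cells. The class with larger artery genes thus had the most genes at equal depth. The rule rests on counts of 0, which depend on depth. With every cell thinned before the rule was applied, 13 of 26 arterial genes were higher than in marker-negative cells without overlap (beside 5.0% of all genes). Against Bmx/Gkn3 cells, 15 of 25 capillary genes were then higher (beside 4.39% of all genes).

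The 78 cells varied among themselves by the gene that admitted them. Hey1-only cells had a median arterial sum of 2165 CPM and a median capillary sum of 19556 CPM, beside marker-negative medians of 1137 and 20366 CPM. Vegfc-only cells had 7035 and 9154 CPM, beside Bmx/Gkn3 medians of 7634 and 5350 CPM. The capillary median of Hey1-only cells was thus close to that of marker-negative cells and the arterial median of Vegfc-only cells close to that of Bmx/Gkn3 cells, while the other median of each subgroup lay between the 2 classes. The 8 cells with both genes had 5981 and 8008 CPM. Ranges were wide in every subgroup: the arterial sum ran from 141.1 to 10241 CPM in Hey1-only cells and from 197.6 to 19851 CPM in Vegfc-only cells. These are descriptions over cells and carry no test.

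**Figure D4:**
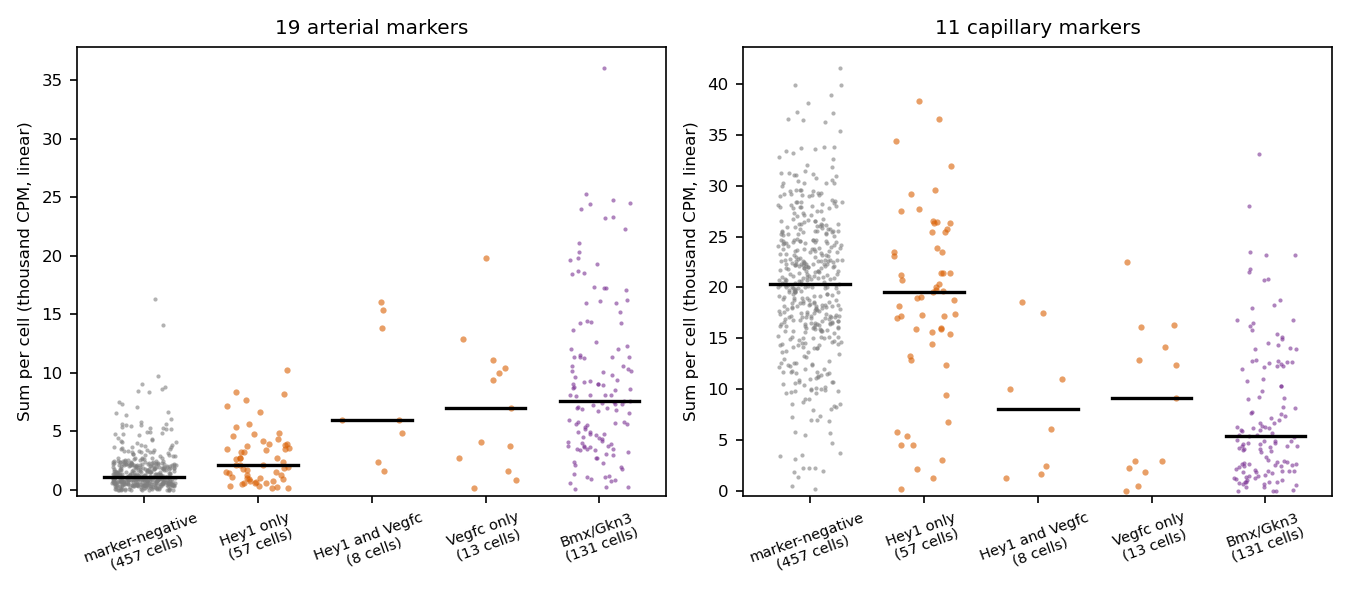
Each point is 1 cell and black lines are medians; the left panel shows the sum of 19 arterial markers and the right panel the sum of 11 capillary markers, on linear axes in CPM divided by 1000. In the right panel the Hey1-only median lies near the marker-negative median (19556 and 20366 CPM), and in the left panel the Vegfc-only median lies near that of Bmx/Gkn3 cells (7035 and 7634 CPM).

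Single genes also differed between the subgroups after thinning to 50000 counts. Stmn2 was counted in 17.5% of 57 Hey1-only cells and 53.8% of 13 Vegfc-only cells, beside 4.60% of marker-negative and 67.2% of Bmx/Gkn3 cells. Clu was counted in 7.02% and 61.5%, beside 5.91% and 51.1%. Car4 ran the other way at 71.9% and 30.8%, beside 88.2% and 15.3%, and so did Mfsd2a at 63.2% and 15.4%, beside 57.5% and 26.7%. Clu was thus more frequent in Vegfc-only than in Bmx/Gkn3 cells, and Mfsd2a lay outside the range of the 2 classes in both subgroups. Cdkn1c, an inhibitor of the cell cycle named after its values were seen, was counted in 52.6% of Hey1-only and 53.8% of Vegfc-only cells, beside 19.04% and 54.96%. Sox17 stood at 78.9% and 100%, beside 63.2% and 87.02%. With 13 Vegfc-only cells, a single cell changes a share by 7.69 percentage points.

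**Figure D5:**
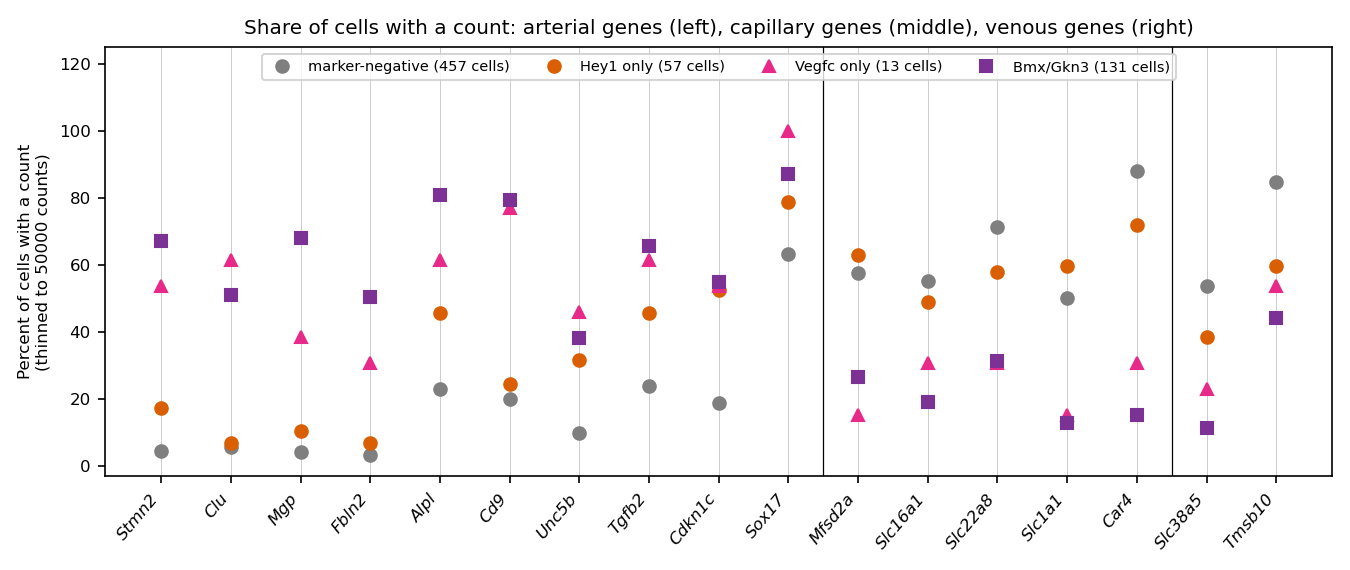
The share of cells with a count (percent, after thinning to 50000 counts) is shown for 10 arterial genes, 5 capillary genes and 2 venous genes, with 1 symbol for each group of cells. Vegfc-only cells stand near Bmx/Gkn3 cells for Clu (61.5% and 51.1%) and Car4 (30.8% and 15.3%), and Hey1-only cells stand near marker-negative cells for Clu (7.02% and 5.91%).

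A fit with the subgroups as classes of their own compared 2 Vegfc-only sums of 5 cells each with 3 Hey1-only sums. In that fit edgeR called 84 of 8799 genes (0.955%) by its quasi-likelihood test, 7 higher and 77 lower in Vegfc-only cells. Of the 77, 60 had no count in the 10 Vegfc-only cells, as had 1621 of all genes tested, and the median log2 fold change of all genes was −0.80. Without Young1, which gave no Vegfc-only sum, edgeR called 0 genes. That fit had fewer sums, so the loss does not show which sets the calls rest on. Leaving out Young2 or AY_Y3 left 1 Vegfc-only sum, which cannot show its own spread. Nr4a1, a nuclear receptor induced within minutes of a stimulus, rose to 1970 and 1347 CPM in Vegfc-only cells of Young2 and AY_Y3 against 171.4, 76.05 and 47.7 CPM in Hey1-only cells (log2 fold change 4.57 ± 0.53; edgeR adjusted p 0.0288). In these sums 1 cell of 5 gave 80.5% of the Nr4a1 counts in Young2 and 91.6% in AY_Y3. Its relative Nr4a2 stood at 370 and 115.8 against 5.14, 1.09 and 2.51 CPM. Dusp1, a phosphatase of the same early response, stood at 1723 and 2550 against 1322, 415 and 418 CPM. Azin1 and Mbnl2 were called higher as well, with 99.1% and 99.7% of the Azin1 counts in 1 cell of each set.

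Counts of early genes were not confined to Vegfc-only cells. Nr4a1 was counted in 7 of 13 Vegfc-only cells, 10 of 57 Hey1-only cells and 44.3% of Bmx/Gkn3 cells. Nr4a2 was counted in 7 of 13, 8 of 57 and 45.8%, and Fos in 4 of 13, 10 of 57 and 14.504% of them. Col18a1, which encodes the collagen that gives rise to endostatin, had no count in the Hey1-only sums and 45.1 and 40.7 CPM in the Vegfc-only sums. Taking 3 counts over the Hey1-only group as the floor, it was at least 565-fold higher (edgeR adjusted p 0.0447). All of these counts came from 1 cell in each set, 2 of the 10 cells in the fit. Among genes called lower with a count in Vegfc-only cells, Bsg stood at 14415 and 14022 CPM against 19804, 17106 and 18176 CPM (log2 fold change −0.57 ± 0.07; edgeR adjusted p 0.0288) and Ccdc141 at 370 and 317 against 952, 1030 and 739 CPM. Those with the largest fitted difference had no count in the Vegfc-only sums: Ddc, the enzyme that makes dopamine and serotonin from their precursors, was at least 494-fold lower with 3 counts over that group as the floor, and was counted in 28 of 57 Hey1-only cells. Abhd16a, N4bp3, Ubr4 and 9530082P21Rik were at least 482-fold, 419-fold, 344-fold and 331-fold lower by the same floor, and Serpine2 had no count there either. These 4 were counted in 19, 16, 27 and 12 of 57 Hey1-only cells, and Serpine2 in 10. The floor covers counts and not the number of cells, so these folds do not bound expression per cell.

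A few of the 78 cells carried genes of large arteries and few counts of capillary genes. Fbln5 was counted in 5, of which 3 were in Young1 and 2 in AY_Y3. All 5 had Clu, and none had a count of Slc16a1, Mfsd2a, Slc22a8 or Tfrc. Itm2a averaged 341 CPM in them and 8528 CPM in the other 73 cells. At the level of pairs, Alpl and Mfsd2a were counted together in 19 of 78 cells (24.4%) after thinning, in 10.9% of marker-negative and 18.3% of Bmx/Gkn3 cells. Of the 78 cells, 21 had Alpl only, 21 had Mfsd2a only and 17 had neither. A joint share rises with the share of cells that have each gene, so it does not show that the genes go together. Alpl and Slc22a8 were together in 21.8% of the 78 cells, beside 11.4% and 24.4%. Stmn2 and Slc16a1 were together in 4 of 78 (5.13%), beside 1.75% and 5.34%.

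Over the 703 kept cells, the genes whose log2(CPM + 1) followed Hey1 most closely were Stmn2 (Pearson r 0.39), Alpl (0.37), Bmx (0.32), Mgp (0.31) and Tmem100 (0.29). Those most like Vegfc were Mgp (0.54), Laptm5 (0.53), Nos1 (0.52), Clu (0.52) and Tmem100 (0.51). Bmx ranked 3 of 9375 genes for Hey1 and 12 for Vegfc. Hey1 and Vegfc correlated at 0.27 with each other. The cells share libraries and vary in depth, and these values are descriptions with no test.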

How the data were processed

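Single-cell RNA was measured in 745 brain endothelial cells. The values are whole-number read counts per gene symbol, as deposited by the authors, with no normalization: 20607 symbols, 708 without a count. Bowtie 0.12.2 and the builds mm8 and mm10 are named in the submitters' processing notes, with no role given. How reads were counted, with which annotation and strand setting, is not given in the sources used here, so no coordinates are printed, and genes that share reads with close copies or overlap others are uncertain. The reads carry no molecular identifiers. Intervals and floors cover counting error only.

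Single cells held 52819 to 2421434 counts, and 0 were identical to another. CPM were computed from a cell's or a sum's own total. Within each set, the raw counts of a class were added up, giving 9 sums. edgeR 4.0.16 in R 4.3.3 fitted its quasi-likelihood model with TMM scaling and a term for the set, on 8841 genes that passed its default filter and had a count in 5% of the cells. Benjamini-Hochberg adjustment ran over all of them at 0.05. Hey1, Vegfc, Bmx, Gkn3, Cytl1 and Vtn were left out. A second fit with 11 sums split Hey1/Vegfc cells by admitting gene, and subgroups under 5 cells in a set were left out. SE were taken from the fold and its test statistic. DESeq2 1.42.0 and limma 3.58.1 were alternatives. The fits were tested on simulated data. No doublet caller was run; cells with astrocyte or mural genes at 200 CPM were left out as an alternative. Thinning drew 50000 counts per cell without replacement (seed 11, Python 3.11.15, numpy 2.4.6, pandas 2.3.3).

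The rule for named genes took called genes at 20 CPM or more by fold, up to 10 in each direction for each main comparison and 6 for the others; 0 qualified in the main comparisons. It also took, for each list, the genes with the smallest p, and the segment markers, Notch genes and VEGF receptors whatever their values. The members and lists were chosen with earlier results of these data known, and further list members are named because their sums did not overlap, which was seen first. Samples of a set share a title prefix, which blocked the fits; deviations of same-set sums correlated at −0.013 to 0.068 across genes. A venous gene is not reported here by name.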

Additional observations from a re-analysis of the deposited data

How the results depend on the processing

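The share of tested genes called against marker-negative cells was 4.14% (366 genes) with DESeq2 and 0.0112% (1 gene) with admission at any count, and 0% under the other 11 settings. Against Bmx/Gkn3 cells it was 6.33% (560 genes) with DESeq2, 0.192% (17) with limma, 0.0656% (5) with thinned cells, 0.0447% (4) with admission at any count, 0.0339% (3) with no replicate block, 0.0102% (2) with no filter on low counts and 0.0115% (1) without cells with astrocyte or mural markers. Against the midpoint it was 5% (442 genes) with DESeq2. For Vegfc-only against Hey1-only cells the 0.955% (84 genes) became 25.5% (2241) with DESeq2, 14% (1253) with admission at 50 CPM, 6.58% (579) with no replicate block, 5.69% (501) with limma, 2.47% with admission at any count, 0.198% (39) with no filter, 0.409% (36) with upper-quartile library sizes, 0.377% (33) without venous-gene cells and 0.259% (23) without cells with astrocyte or mural markers. Leaving out 1 set at a time gave 0 to 0% in each of the 4 comparisons; without Young2 or AY_Y3, 1 Vegfc-only sum was left and was assumed to vary like the others. The cause was not tested. Correlations of same-set deviations did not pass 0.1. They were taken over all tested genes together, so they cannot exclude a set effect in some genes. Rn18s-rs5 stood at 30828 and 53565 CPM in the Vegfc-only sums of Young2 and AY_Y3. In the Hey1-only sums of these sets it stood at 36431 and 61915 CPM.

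Upper-quartile library sizes moved the median log2 fold change of all genes against marker-negative cells from −0.15 to −0.33. Of 69 single-gene fold changes, 67 kept their direction under all 13 alternatives. Plxna2 against Bmx/Gkn3 cells became −0.39 with thinned cells and −0.22 with limma, and Slc38a5 against marker-negative cells became 10.45 without venous-gene cells, because cells with Slc38a5 were removed. List counts were recomputed under 5 choices of cells chosen after seeing the data, and marker panels without venous-gene cells likewise. Capillary genes lower than in marker-negative cells numbered 8 of 25 with thinned cells (beside 9.45% of all genes). They numbered 8 of 25 without cells with astrocyte or mural markers (beside 10.6%) and 1 of 25 without venous-gene cells (beside 5.24%). Venous genes lower numbered 1 of 10 without venous-gene cells (beside 5.24%), and arterial genes higher 3 of 27 (beside 3.85%). With 3 sets and 16 to 35 Hey1/Vegfc cells in each, edgeR called 0 genes in the main comparisons. Genes with large fitted differences, such as Nos1 and Stmn2 against marker-negative cells, were among those not called. The size of difference that could be detected is not given here.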
